A study of Mus musculus with 6 samples.

Results

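Motile cilia of ependymal cells were followed in the hippocampus of Phf8 knockout mice through 10 genes that mark them: Foxj1, Rsph1, Dynlrb2, Tekt1, Dnali1, Tmem212, Ccdc153, Enkur, Spata18 and Spag17. They were chosen by name, and every probe set whose only gene symbol is one of these was taken. That gave 12 probe sets of the 45037 measured, with Dnali1 and Spag17 carrying more than 1. RNA came from hippocampus of 10-week-old mice, labelled as C57BL/6 background, with 3 wild-type (WT) and 3 Phf8 knockout (KO) samples, each on 1 Affymetrix mouse array. The KO mice were hemizygous males that lack the exons for the core of the JmjC demethylase domain, removed in the germ line by breeding with EIIa-Cre mice, a Cre line active in early embryos, and the WT mice were male littermates. The allele was made on a 129/S6/SvEv background, and the line was then backcrossed to C57BL/6 J mice over several generations. The deletion is therefore present in every tissue, and no cell type was singled out. The methods speak of hippocampus from 3 mice as a sample, so each array may hold 1 mouse or a pool, and nothing in the labels says which. The p-values below measure the spread between arrays.

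Ependymal cells line the brain ventricles, whose wall borders the hippocampus, and beat bundles of motile cilia that move cerebrospinal fluid. The shaft of such a cilium, the axoneme, is a ring of microtubule doublets around a central pair. Dynein arms on the doublets generate the beat, radial spokes and the nexin-dynein regulatory complex control it, and tektins and other inner proteins stiffen the doublets. FOXJ1 and the RFX factors switch on these genes. Neurons and astrocytes carry a single immotile primary cilium, which is built by intraflagellar transport but lacks the motile parts. Epithelial cells of the choroid plexus also carry several cilia, so a tissue sample can hold cilia genes of both epithelia.

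The promoters of the members were read first, since RFX factors bind a paired element called the X-box. RefSeq promoter windows (GRCm38.p6, 250 bases before to 50 after a transcript's start) were given for 8 of the 10 genes. The core of an X-box arm, GTTGCC, searched on both strands, lay in the windows of 4 of the 8, against 14.1% of all 27025 genes with a window. The forkhead core TGTTTAC lay in 0 of the 8, against 4.05% of all genes. The stretches around GTTGCC are shown so that its surroundings can be compared. Each holds 100 bases, with GTTGCC or its reverse complement GGCAAC in capitals: chr8:116504914-116505013 (plus strand), chr9:44240475-44240574 (plus strand), chr2:21205366-21205465 (minus strand) and chr11:72361883-72361982 (minus strand).
Dynlrb2: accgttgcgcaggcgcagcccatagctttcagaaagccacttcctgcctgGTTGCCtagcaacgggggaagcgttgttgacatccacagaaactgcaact
Ccdc153: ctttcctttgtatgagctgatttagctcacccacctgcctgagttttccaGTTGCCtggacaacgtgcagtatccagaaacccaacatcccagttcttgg
Enkur: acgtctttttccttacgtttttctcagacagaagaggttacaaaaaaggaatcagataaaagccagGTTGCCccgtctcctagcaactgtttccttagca
Tekt1: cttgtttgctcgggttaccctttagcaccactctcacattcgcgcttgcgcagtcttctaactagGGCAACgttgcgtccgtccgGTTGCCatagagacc

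Counted from the start of transcription, GTTGCC began at -51 in Dynlrb2, at -34 in Enkur and at -152 in Ccdc153. Tekt1 held it in both orientations, beginning at -35 and -15. A second Tekt1 window and those of Tmem212, Dnali1, Spata18 and Spag17 did not contain these letters. A match is a run of letters and was not measured as binding, and its part in the array values was not tested.

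The arrays were first checked for the targeted gene and for tissue. For the bright Phf8 probe set, the log2 signal was 9.90, 9.66 and 9.73 in WT replicates 1, 2 and 3, and 8.23, 8.55 and 7.99 in the KO replicates of the same numbers. KO minus WT was -1.51 (SE 0.18; limma, adjusted p = 0.124). All KO arrays lay below all WT arrays for it. Its 2 dim probe sets, both under the filter, differed by 0.32 and -0.06. The position of these probes against the deletion was not analysed here. KO replicate 3 stood apart. Its correlation with the other arrays across the 27408 probe sets above the filter was 0.899 to 0.925, while the remaining arrays correlated with each other at 0.968 to 0.985. There, 12 thalamus markers had a median of 2.30 above the WT mean on the log2 scale and 7 markers of CA1 pyramidal cells a median of -1.48. Because of this array, the main results are given with and without it.

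Of the 10 motile cilia genes, 8 had a probe set above the filter, a signal over the 40th percentile of its array (5.73 to 6.05) on at least 3 of 6 arrays. All 8 were higher on average in KO hippocampus, against 51.9% of the 12903 genes tested. In limma, 0 of 8 passed an adjusted p of 0.05, and 6 of 27408 probe sets did (0.0219%). Those 6 were all lower in KO, so 0 probe sets of the whole array passed as higher. At an unadjusted p under 0.05, 3 of the 8 were higher (Dynlrb2, Tmem212 and Ccdc153), against 4.19% of genes. For Foxj1, Tekt1 and Dnali1 the adjusted p from limma was 0.922, 0.837 and 0.801. The median difference over the 8 was 0.61 on the log2 scale, against 0.01 over all genes tested, and it was 0.38 without KO replicate 3. Without the filter, 9 of the 10 were higher, with a median of 0.51. That count adds Spag17 from a probe set under the filter, at 0.14 (SE 1.57), while its other probe set was at -0.41. In tissue RNA, a different number of ependymal cells and a different amount of RNA per cell cannot be told apart. The 10 genes were picked with earlier results of these data known, so these counts are a description.

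**Figure D1:**
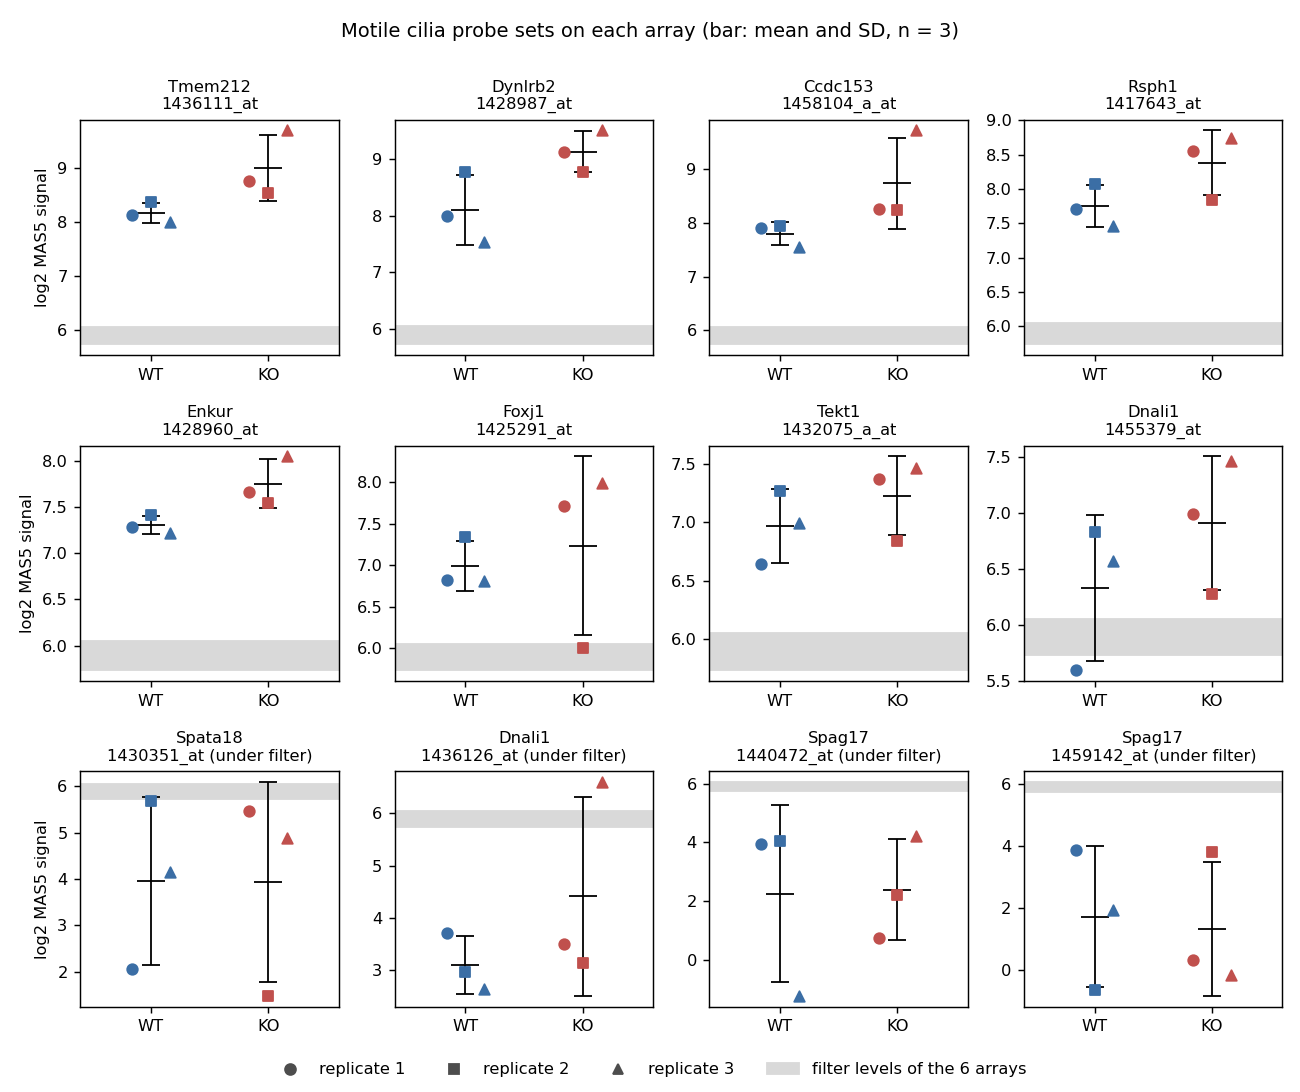
Log2 MAS5 signal (y axis) of the 12 motile cilia probe sets in WT and KO hippocampus, with a symbol for each replicate number, a bar for the mean and SD of 3 arrays, and a grey band from 5.73 to 6.05 for the filter levels of the 6 arrays. KO replicate 3, the red triangle, is the highest array for the 8 probe sets above the filter, and the 4 probe sets of the bottom row lie mostly below the band.

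Foxj1 encodes the forkhead factor that drives the motile cilia program. Its log2 signal was 6.82, 7.34 and 6.81 in WT and 7.71, 6.00 and 7.99 in KO, in the order of replicates 1, 2 and 3 here and below. KO replicates 1 and 3 lay above all WT arrays and KO replicate 2 below all of them, so the groups overlapped. KO exceeded WT by 0.24 (SE, the standard error from limma, 0.51) on average, which turned to -0.14 without KO replicate 3, 0.01 without KO replicate 1 and 0.86 without KO replicate 2. Foxj1 thus had the smallest difference of the 8 and the widest spread in KO, with an SD of 1.08 against 0.30 in WT (n = 3 each).

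Among the dynein genes, Dynlrb2, a light chain of the roadblock family, had the largest difference of the 8. Its log2 signal was 7.99, 8.77 and 7.54 in WT and 9.12, 8.76 and 9.50 in KO. KO replicate 2 and WT replicate 2 were nearly alike, and every other KO array lay above every WT array. The fold was 2.04 (1.03 on the log2 scale, SE 0.33; unadjusted p = 0.0171 and adjusted p = 0.773 from limma), and it was 1.79 without KO replicate 3. Dynlrb1, the paralog that serves cytoplasmic dynein in most cells, is read by a probe set of the _s_at type, which can match more than 1 transcript. It had a mean log2 signal of 12.39 in WT and 12.60 in KO, 0.21 apart (unadjusted p = 0.0404 and adjusted p = 0.782 from limma). Dnali1 encodes a light intermediate chain of inner dynein arms. Its brighter probe set had 5.59, 6.83 and 6.57 in WT and 6.995, 6.28 and 7.47 in KO, and the groups overlapped. It was above the filter on 2 WT and 3 KO arrays, and the other genes of the 8 on all 6 arrays. The means were 0.58 apart (SE 0.43), a fold of 1.495 and so just under 1.5. They were 0.30 apart without KO replicate 3, 0.90 without KO replicate 2 and 0.21 without WT replicate 1. The dimmer Dnali1 probe set lay between 2.64 and 3.71 on 5 arrays and at 6.60 in KO replicate 3.

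Rsph1, a protein of the radial spoke head, and Spag17, a protein of the central pair, belong to the machinery that steers the beat. Rsph1 had log2 signals of 7.71, 8.07 and 7.46 in WT and 8.55, 7.84 and 8.74 in KO. KO replicate 2 lay below WT replicate 2, and the other KO arrays lay above all WT arrays. The fold was 1.55 (0.63 on the log2 scale, SE 0.28; unadjusted p = 0.0556 and adjusted p = 0.782 from limma), or 1.37 without KO replicate 3. Both Spag17 probe sets were under the filter on all 6 arrays, with signals from -1.22 to 4.21 and from -0.63 to 3.88. They differed by 0.14 and -0.41, against SDs within groups of 1.73 to 3.01, and their levels cannot be read at this signal.

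Tekt1, a tektin, and Enkur, which encodes enkurin, belong to the doublet microtubules. Tekt1 had log2 signals of 6.65, 7.27 and 6.99 in WT and 7.37, 6.84 and 7.47 in KO. The groups overlapped through KO replicate 2, and the means lay 0.26 apart (SE 0.26), or 0.14 without KO replicate 3 and 0.18, 0.45, 0.10 and 0.41 without KO replicate 1, KO replicate 2, WT replicate 1 and WT replicate 2. Enkur had 7.29, 7.41 and 7.22 in WT and 7.66, 7.54 and 8.05 in KO, and all 3 KO arrays lay above all 3 WT arrays. Its KO mean was higher by 0.45 (SE 0.20; unadjusted p = 0.0558 and adjusted p = 0.782 from limma), a fold of 1.36, or 1.23 without KO replicate 3.

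Tmem212, a membrane protein, and Ccdc153, a coiled-coil protein, are known as markers of ependymal cells. Tmem212 had log2 signals of 8.13, 8.36 and 7.99 in WT and 8.75, 8.54 and 9.70 in KO. Ccdc153 had 7.90, 7.94 and 7.55 in WT and 8.27, 8.23 and 9.72 in KO. For both genes the groups did not overlap, with gaps of 0.18 and 0.30 between the lowest KO and the highest WT array, and KO replicate 3 lay far above the other KO arrays. The folds of 1.78 for Tmem212 (unadjusted p = 0.0273 and adjusted p = 0.782 from limma) and 1.93 for Ccdc153 (unadjusted p = 0.0478 and adjusted p = 0.782 from limma) became 1.40 and 1.37 without that array. Spata18, known for a part in mitochondrial quality control, was under the filter on every array. It had 2.06, 5.68 and 4.15 in WT and 5.46, 1.47 and 4.89 in KO, which is a wide spread in both groups and a difference of -0.02.

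All 3 KO arrays exceeded all 3 WT arrays for 3 of the 8 genes (Enkur, Tmem212 and Ccdc153), against 9.56% of genes tested. Of the 8, 4 were at least 1.5-fold higher (Dynlrb2, Ccdc153, Tmem212 and Rsph1), against 4.15% of genes. Without KO replicate 3, 1 of the 8 reached that fold (Dynlrb2), against 3.27%. Without it 3 of the 8 were higher at an unadjusted p under 0.05 (Dynlrb2, Tmem212 and Ccdc153), against 7.80%, and KO replicates 1 and 2 both exceeded every WT array for the same 3 genes that did so with all arrays, against 18.8%. In limma without that array, 0 of the 8 had an adjusted p under 0.05, where 64 of 27408 probe sets did, 11 of them higher in KO.

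**Figure D2:**
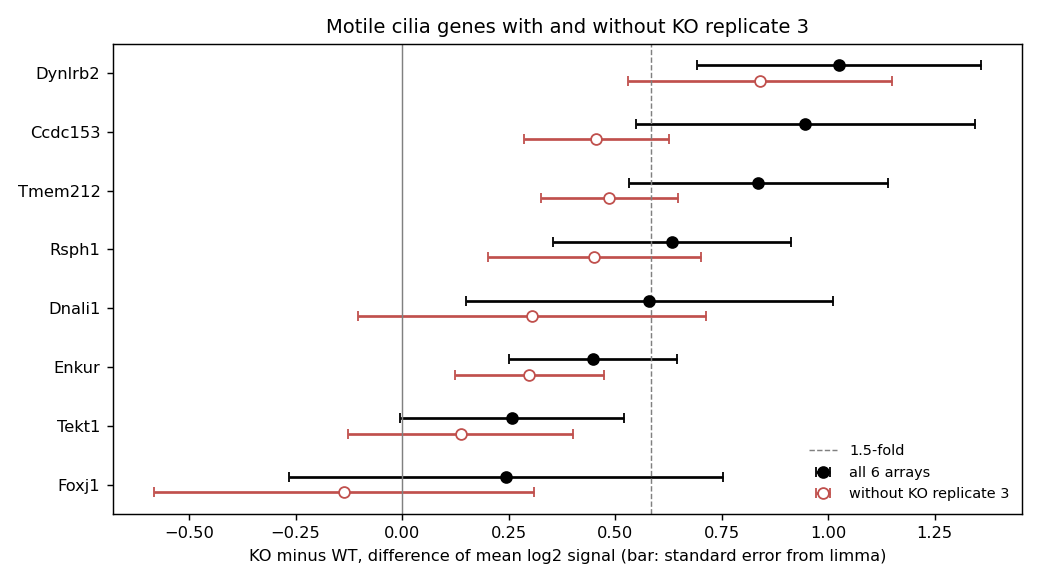
Difference of mean log2 signal between KO and WT (x axis) for the 8 motile cilia genes above the filter, with the standard error from limma as a bar, for all 6 arrays (black) and without KO replicate 3 (open red). Each difference is smaller without that array, and Foxj1 moves from 0.24 to -0.14.

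The shift did not hold on all KO arrays. KO replicates 1 and 3 lay above every WT array for 8 of the 8 genes, and KO replicate 2 for 3. KO replicate 2 lay above WT replicate 2 for 3 of the 8 genes, above WT replicate 3 for 5 and above WT replicate 1 for 7. Parts of the order of the arrays were shared by the 8 genes. KO replicate 3 was the highest of the 6 arrays for 8 of 8, against 32.8% of all genes tested. KO replicate 2 was the lowest KO array for 8 of 8, and WT replicate 2 the highest WT array for 8 of 8. For these latter counts no share over all genes was taken. The lowest WT array was replicate 3 for 6 genes and replicate 1 for 2. Set against the WT mean of each gene, the 8 had a median of -0.07, 0.31 and -0.17 on the WT arrays and of 0.63, 0.17 and 1.07 on the KO arrays. The WT arrays thus spanned 0.31 above to 0.17 below their mean, and KO replicate 2 fell within that span. Without KO replicate 2, 8 of 8 genes had KO arrays above all WT arrays, against 18.7% of genes tested, and the median difference was 0.90. Without WT replicate 2, 5 of 8 did, against 14.1%.

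Markers of neighbouring tissues varied over the same arrays, each with its own pattern. The 16 choroid plexus markers above the filter had medians of 0.02, 0.96 and -0.95 on the WT arrays and 1.33, 0.44 and -2.03 on the KO arrays, and their summed signal ran from 14.98 to 15.38 in WT and from 14.18 to 15.47 in KO on the log2 scale. Over WT replicates and KO replicates 1 and 2 they were ordered like the cilia genes, with WT replicate 2 the highest WT array for 15 of 16. In KO replicate 3 they went the other way, and 12 of 16 had their lowest signal there. Their median difference between KO and WT was -0.27 with that array and 0.88 without it. For the counts of 15 of 16 and 12 of 16, no share over all genes was taken. Folr1, a folate receptor of the choroid plexus, had 9.51, 10.17 and 8.17 in WT and 10.62, 9.26 and 7.71 in KO. Ttr, the transthyretin gene and the most abundant transcript of that epithelium, lay between 14.57 and 14.83 on 5 arrays and at 13.93 in KO replicate 3, so choroid plexus RNA was present in every sample. On those 5 arrays the highest signal of any probe set was 14.82 to 14.91, so Ttr lay near the top of the range. Ttr makes up much of the summed signal, which varied less than the medians of the list.

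Thalamus markers were higher in KO replicate 3. The 12 above the filter had medians from -0.11 to 0.07 in WT and of 0.18, 0.10 and 2.30 in KO, and their summed signal was 12.59 to 12.68 in WT and 12.70, 12.73 and 14.76 in KO on the log2 scale. Their median difference was 0.87, or 0.15 without KO replicate 3. Tcf7l2, a Wnt pathway factor of thalamic neurons, had 7.99, 8.13 and 8.28 in WT and 8.64, 8.44 and 11.50 in KO, and their vesicular glutamate transporter gene, Slc17a6, had 9.39, 9.62 and 9.49 in WT and 9.88, 10.09 and 12.22 in KO. Of 10 markers of the medial habenula, which borders the third ventricle, 3 were above the filter. Tac2, a tachykinin gene, had 8.76 in KO replicate 3 against 6.94 to 7.60 on the other arrays, and Chrnb4 was under the filter. Of 11 marker genes of meninges and fibroblasts, 9 were higher on average, with medians of 1.06, 0.53 and -0.11 in the KO replicates and a median difference of 0.46, or 0.99 without KO replicate 3. The collagen gene Col1a2 had 7.58, 8.34 and 7.75 in WT and 9.30, 8.86 and 9.35 in KO, 1.28 higher in KO on average (limma, adjusted p = 0.531). The 12 astrocyte markers were nearly alike (median difference 0.05), with Gja1, a gap junction gene, at 0.08 and Aqp4, the water channel of astrocytes and ependyma, at 0.33. Hippocampal neurons were present in every sample by Prox1 of dentate granule cells, at 8.73 to 9.31, and Wfs1 of CA1, at 10.54 to 11.36. Dentate granule cell markers were lower on average in KO for 10 of 10, with a median difference of -0.39, or -0.29 without KO replicate 3, and 4 of the 10 had all KO arrays below all WT arrays, against 7.13% of genes tested. Their medians were 0.19, 0.09 and -0.24 on the WT arrays and -0.24, -0.34 and -0.59 on the KO arrays. The 7 CA1 markers had a median difference of -0.48, or 0.05 without KO replicate 3. The part of these tissues and cells in the cilia gene values was not tested.

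**Figure D3:**
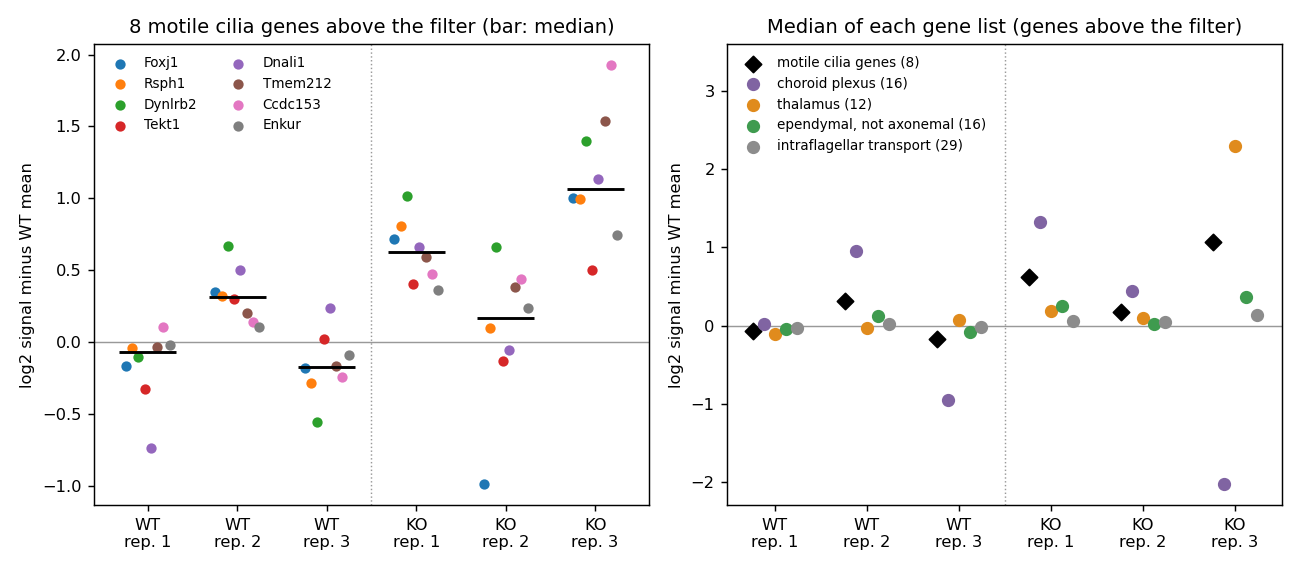
Left, log2 signal minus the gene's WT mean (y axis) of the 8 motile cilia genes on each of the 6 arrays (x axis), with their median as a bar; right, the same median for 5 gene lists, with the number of genes in parentheses. The cilia genes are lowest in WT replicate 3 and highest in KO replicate 3 (medians of -0.17 and 1.07), where choroid plexus markers lie at -2.03 and thalamus markers at 2.30.

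Other parts of the motile axoneme were examined on 5 lists of 98 genes in all, none of them among the 10. Of these, 82 were on the array and 56 above the filter. On average 40 of the 56 were higher in KO and 16 lower, with a median difference of 0.27, or 0.19 without KO replicate 3. An adjusted p of 0.05 in limma was passed by 0 of the 56 (0.0219% of all probe sets, each of those lower in KO). An unadjusted p of 0.05 was passed by 7 that were higher (4.19% of all genes). All KO arrays exceeded all WT arrays for 9 of the 56, where the share over all genes was 9.56%. KO replicate 3 was the highest of the 6 arrays for 32 of 56, against 32.8% of all genes tested. WT replicate 2 was the highest WT array for 35, for which no share over all genes was taken. Their median lay 0.29, 0.10 and 0.45 above the WT mean on KO replicates 1, 2 and 3, so KO replicate 2 was again the closest to WT. Without the filter, 58 of 82 were higher.

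Radial spoke and central pair genes were higher for 12 of 14 (median 0.38, or 0.26 without KO replicate 3). Cfap54, a large central pair protein, had 7.40, 7.73 and 7.53 in WT and 8.10, 8.17 and 9.44 in KO. Its groups did not overlap, and the means lay 1.02 apart (unadjusted p = 0.0241 and adjusted p = 0.782 from limma), or 0.58 without KO replicate 3. Hydin, whose loss causes hydrocephalus in mice, differed by 0.87 and overlapped between the groups. Rsph4a, another spoke head protein, had 7.14, 7.38 and 7.03 in WT and 7.77, 7.57 and 8.15 in KO, without overlap (0.65 apart). Nme5, a spoke component, differed by 0.35 without overlap, and Rsph9, a spoke head protein too, by 0.28. Spag6l, the copy of the central pair gene Spag6 that was above the filter, differed by 0.73. Spag6 itself and the 4 probe sets of Spag16 were under the filter.

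Tektins and microtubule inner proteins were higher for 12 of 13 (median 0.37, or 0.27 without KO replicate 3), while Tekt2, Tekt3 and Tekt4 were under the filter. The smallest p of the 5 axoneme lists belonged to Meig1, a gene known for its part in sperm formation, with 6.68, 6.93 and 6.76 in WT and 7.82, 7.36 and 7.90 in KO. Its groups did not overlap, and its fold was 1.87 (unadjusted p = 0.00383 and adjusted p = 0.755 from limma). The inner proteins Cfap126, Cfap52 and Cfap20 differed by 0.59, 0.54 and 0.25, the last by 0.13 without KO replicate 3. Axonemal dynein chains were higher for 8 of 11 (median 0.35, or 0.17 without KO replicate 3). The inner arm heavy chains Dnah6, Dnah7a and Dnah1 differed by 1.12, 0.65 and 0.49, and the inner arm intermediate chain gene Dnai3, on the array as Wdr63, by 0.85. Genes of the nexin-dynein regulatory complex and its ruler were higher for 4 of 7 (median 0.40, or 0.17 without KO replicate 3), with Iqca at 0.49, Drc3 and Drc1 at 0.40 each and Tcte1 at -0.48. Without that array, Iqca was at 0.29, Drc3 at 0.33 and Drc1 at 0.17.

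Genes that assemble or dock dynein arms, which act in the cytoplasm or at the doublets, were higher for 4 of 11 (median -0.06, or -0.09 without KO replicate 3). Among them Cfap298 differed by 0.24, Spag1 by 0.19, Dnaaf4 by -0.18 and Cfap300 by -0.37. Regulators of multiciliation were higher for 5 of 10 (median 0.00, or 0.12 without KO replicate 3). Rfx3, an RFX factor also expressed in neurons, had 11.86, 11.76 and 11.62 in WT and 11.52, 11.57 and 11.05 in KO on its bright probe set, -0.36 in KO minus WT (unadjusted p = 0.0508 and adjusted p = 0.782 from limma). On that probe set the KO arrays all lay below the WT arrays, and the difference was -0.20 without KO replicate 3. A dimmer Rfx3 probe set above the filter had 6.36, 6.34 and 6.57 in WT and 6.53, 6.09 and 4.23 in KO. There the groups overlapped. Fank1 differed by 0.50, Myb, a factor of early multiciliation, by 0.56, or 0.19 without KO replicate 3, and Rfx4 by 0.31, and the 4 probe sets of Rfx2 were under the filter.

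**Figure D4:**
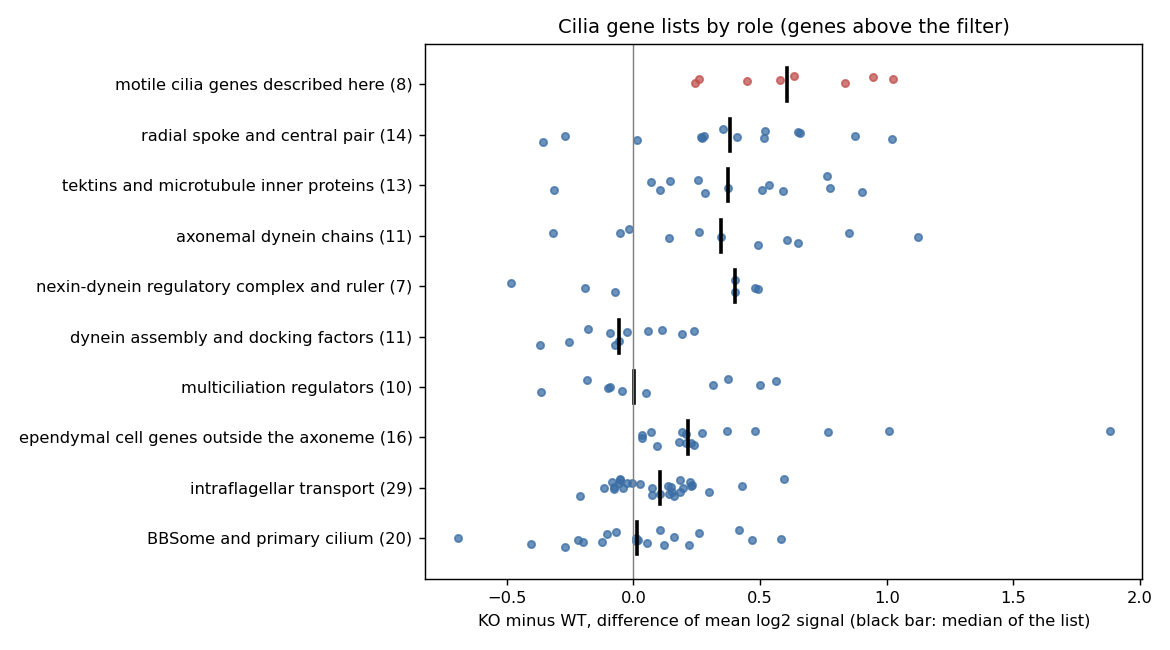
Difference of mean log2 signal between KO and WT (x axis) for genes above the filter in 10 lists, with their number in parentheses and the median of each list as a black bar. Medians of the motile parts lie between 0.35 and 0.61, and those of assembly factors, regulators and the primary cilium between -0.06 and 0.02. A filter at the 60th percentile turned those of dynein chains (-0.04, 4 genes), the nexin-dynein complex (-0.07, 3 genes), assembly factors (0.13, 4 genes) and regulators (-0.10, 5 genes). With array weights, the median of regulators (0.22) lay above that of the nexin-dynein complex (0.13).

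Parts that motile and primary cilia share had smaller medians than the structural parts of the axoneme with all arrays and this filter. Genes of intraflagellar transport were higher for 18 of 29 (median 0.11, or 0.05 without KO replicate 3). Ift27, a small GTPase of the transport train, differed by 0.59 (0.33 without that array), its partner Ift25, on the array as Hspb11, by 0.20, and the retrograde motor genes Wdr34 and Dync2li1 by 0.43 and 0.23. Genes of the BBSome and the primary cilium were higher for 12 of 20 (median 0.02, or 0.03 without it). Bbs2 differed by 0.42 (0.19 without it), Bbs4 by 0.22, Cep290, a transition zone gene, by -0.41, and Gpr161, a receptor of the primary cilium that is also abundant in CA1, by -0.69, or -0.16 without KO replicate 3. Across both lists limma gave 0 adjusted p under 0.05, and 2 of the 29 and 0 of the 20 were higher at an unadjusted p under 0.05, where 4.19% of all genes were. Whether the lists differ from each other was not tested.

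Ependymal genes outside the axoneme were higher on average for 16 of 16, with a median of 0.22, and for 12 of 16 without KO replicate 3 (median 0.15). On KO replicate 3 lay the highest signal of 11 of the 16, against 32.8% of all genes tested. Hdc, which makes histamine, had 6.03, 6.59 and 5.51 in WT and 6.95, 6.55 and 7.64 in KO, which overlapped and lay 1.01 apart on average. Rarres2, the gene of chemerin, differed by 0.77, or 0.35 without KO replicate 3. Zic1, a zinc finger factor known from ependyma, meninges and the thalamus, had 9.76, 10.37 and 9.67 in WT and 11.12, 10.71 and 13.61 in KO, without overlap (1.88 apart, or 0.98 without KO replicate 3; limma, adjusted p = 0.782). Dbi, the acyl-CoA binding protein of glia and ependyma, differed by 0.18, and no gene of this list passed.

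The genes most like the 8 across arrays were found by the mean absolute difference, over the 6 arrays, between a gene's log2 signal minus its WT mean and the median of the 8. The median of this distance over 12903 genes was 0.42. Outside the 10, the closest genes were Dnah2, an axonemal dynein heavy chain (0.07), and Rsph4a (0.09), followed by Clic1 (0.09), Fam216b (0.10), Chia1 (0.10), Amdhd2 (0.10), Tsnaxip1 (0.10) and Chrdl1 (0.10). Dnah2 had 6.21, 6.44 and 6.10 in WT and 6.98, 6.36 and 7.23 in KO. Of these 8 closest genes, Dnah2 and Rsph4a are on the cilia lists. The 8 cilia genes themselves varied in this distance, from rank 2 of 12903 for Rsph1 to rank 2431 for Dynlrb2. Their own ranks are partly fixed in advance, because the median was taken over these same 8 genes. The ranking rests on 6 arrays and is a description.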

How the data were processed

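Hippocampal RNA of 3 WT and 3 Phf8 KO samples was hybridised to Affymetrix mouse arrays. The values the authors deposited are log2 MAS5 signals per probe set, and MAS5 and affy stand in the submitters' processing notes, with no version. The methods add GeneSpring and removal of Absent calls, neither of which entered here. Before log2, the trimmed mean signal (2% at each end) was 497.4 to 498.1 on each array.

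Gene names came from a probe table with 1 symbol for 34945 probe sets, several for 932 and none listed for 9160. No symbol changed against RefSeq of GRCm38.p6. The 27408 probe sets with 3 or more arrays over the array's 40th percentile entered a linear model in limma 3.58.1 under R 4.3.3 (eBayes with trend), KO minus WT, with Benjamini-Hochberg adjustment over all of them. Probe sets under the filter are given as values only, and a gene is represented by its brightest probe set above the filter (12903 genes). A fold is taken from the difference of mean log2 signals. With 3 arrays per group, an exact permutation test cannot go below p = 0.1, and the number of arrays limits the precision.

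On simulated data for KO minus WT over 27408 probe sets, the fit called 29 of 100 changes of 1 and 66 of 100 changes of 2 on the log2 scale, with 0 false calls. The simulated noise was independent between probe sets. It held no shift shared across an array, as in KO replicate 3, so these rates may not hold for the measured arrays. Members and lists were chosen with earlier results of these data known. Named are the 10 members, Phf8, up to 4 genes of each cilia list with the smallest p, preset paralogs, partners and tissue markers, and the 8 genes closest to the members. Spag6l was added after its values were seen. Alternatives were other scalings, filters, variance models and gene rules, an offset of 32 signal units, weights per array, a block for the replicate number, and leaving out each array.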

Additional observations from a re-analysis of the deposited data

How the results depend on the processing

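Under all 18 alternatives, 0 of the member probe sets tested passed an adjusted p of 0.05 in limma. Over all probe sets, calls moved from 6 to 9 after quantile normalization, 1 without a filter and 0 without a mean trend. Their number was 307 with array weights and 2 with the replicate block. When 1 array was left out it was 0 to 64, the 64 without KO replicate 3. Of these calls, 129 of the 307 and 11 of the 64 were higher in KO, and every call of the other fits was lower. The lowest adjusted p of a member over the alternatives was 0.0849, for Tmem212. The median over the member genes was 0.58 after quantile normalization, 0.50 with the offset, 0.51 without a filter (10 genes) and 0.38 to 0.90 when 1 array was left out. With a filter at the 60th percentile 4 member genes were left, and 4 were higher. When 1 array was left out, 7 to 8 genes were higher, 3 to 8 had KO arrays above all WT arrays (8 without KO replicate 2, 5 without WT replicate 2) and 1 to 6 were at least 1.5-fold higher (1 without KO replicate 3). Foxj1 changed sign without KO replicate 3 (-0.14) and ran up to 0.86 without KO replicate 2. Of 306 list medians under the alternatives, 285 moved by less than the SD between arrays. Medians within that SD could still change much. Without KO replicate 3, choroid plexus markers went from -0.27 to 0.88 and CA1 markers from -0.48 to 0.05. Thalamus markers went from 0.87 to 0.15 and those of the medial habenula from 0.61 to 0.12. With the 60th percentile filter the medians of dynein chains, the nexin-dynein complex and assembly factors changed sign (-0.04, -0.07 and 0.13), on 3 or 4 genes each. Those of regulators (-0.10) and CA3 markers (0.12) did so too, on 5 genes each. Without a filter, assembly factors were at 0.09 (16 genes) and regulators at 0.13 (14 genes). With array weights, regulators were at 0.22 and the nexin-dynein complex at 0.13. With the replicate number as a block the median stayed 0.61 and 0 members passed. The labels do not say whether equal numbers pair the samples. Across probe sets, the deviations from the group means had correlations of -0.02, 0.07 and 0.10 within numbers 1, 2 and 3. WT replicate 2 correlated best with KO replicate 1 (0.11). These correlations cannot decide on pairing, because deviations from a mean of 3 arrays depend on each other within a group. The causes of these changes were not tested.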
